A study of Mus musculus with 50 samples.

Results

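The tripartite motif (TRIM) genes were followed in mouse spleen after injection of CpG oligodeoxynucleotides (ODNs), short DNAs whose unmethylated CpG motifs activate Toll-like receptor 9. Members were all genes whose annotated symbol is Trim followed by digits and an optional letter and that had values. This gave 45 of the 15311 named genes with values, measured by 75 of the 30750 probes with values. A further 6 TRIM genes on the array (Trim6, Trim31, Trim42, Trim50, Trim52 and Trim60) had no values, and 36 of the 45 members had a value on all 50 arrays. The 45 members were set apart into 10 genes of a list of interferon-responsive TRIM genes (Trim12a, Trim12c, Trim14, Trim21, Trim25, Trim30a, Trim30b, Trim30d, Trim34a and Trim56) and 35 others.

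Most TRIM proteins carry a RING finger, 1 or more B-box zinc fingers and a coiled coil, followed by a carboxy-terminal part that differs between subfamilies. Many are E3 ubiquitin ligases, and members with a PRY-SPRY carboxy terminus include restriction factors against retroviruses and regulators of the receptors that sense foreign nucleic acids. A subset is known to be induced by type I interferon, which plasmacytoid dendritic cells of the spleen release when Toll-like receptor 9 is engaged.

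Total spleen RNA labelled with Cy5 was hybridised against a Cy3-labelled universal mouse reference RNA pooled from many tissues, and every value is a log2 ratio of spleen over reference. A level of 2.00 thus means more RNA in spleen than in the reference for that probe, and levels were not compared between probes. Female BALB/c wild-type mice were untreated (6 arrays), received 400 µg of CpG ODNs 1555 and 1466 intraperitoneally and were sampled after 0.5, 1, 3, 9, 24 or 72 h (4 arrays each), or received control ODNs 1612 and 1471 for 3 h (4 arrays). Female C57BL/6 mice, either controls or carrying a TNF knockout whose allele the labels do not describe, were untreated or sampled 3 h after CpG ODN (4 arrays each). No dose is given in the labels of the C57BL/6 arrays, and no age is given for any group. The series text speaks of independent experiments for each time point but does not say whether an array holds the RNA of 1 mouse or of several. The p-values below therefore take no more than array-to-array spread into account.

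One label conflict touches the C57BL/6 results: the arrays titled CpG ODN carry a source label that reads untreated, and the titles were followed. The level of Tnf lay between 3.16 and 4.59 in the C57BL/6 control arrays titled CpG ODN, between 0.58 and 0.78 in their untreated arrays, and between -0.61 and 0.43 on all 8 TNF-knockout arrays. Spleen markers were present: the mean log2 ratio of 5 B-cell markers ranged from 2.62 to 3.54 in untreated BALB/c spleens and that of 6 T-cell markers from 1.99 to 2.55. The mean of 11 exocrine pancreas markers ranged from 0.65 to 5.86 among the 6 untreated BALB/c arrays, and its part in the TRIM values was not tested beyond a fit with it as a covariate. The mean of 5 skeletal muscle markers lay between -1.50 and -0.57 on all 50 arrays. In bulk tissue, fewer cells of a type and less RNA per cell cannot be told apart. The labels name no batch. Array runs were inferred here from adjacent array numbers in the titles, and whether they mark batches is not stated. The 2 strains lie in separate runs, so strain and run cannot be told apart. The 9, 24 and 72 h and control ODN arrays share no run with untreated arrays.

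Of the 11 genes in the chromosome 7 cluster of mouse genome GRCm38.p6, 10 are TRIM genes, in the order Trim6, Trim34a, Trim5, Trim12a, Trim34b, Trim12c, Gm38525, Trim30b, Trim30c, Trim30a and Trim30d. Trim30a, Trim30b, Trim30d and Trim34a, the 4 members with the lowest adjusted p at 3 h in BALB/c, lie there. Promoter windows from RefSeq, from 250 bases before to 50 bases after the annotated start, were held for 34 of the 45 members. An interferon-stimulated response element (ISRE) was searched on either strand as the letters GAAA, any 2 bases and GAAA again, 10 bases in all. Among the 9 interferon-responsive members with a window 6 held a match, as did 1 of the 25 others (Trim2), against 3.44% of all 32851 windows and 3.99% of the 27025 genes with one. The gamma-activated sequence TTCNNNGAA was found in 0 of the 9, in 3 of the 25 and in 8.30% of all windows. The promoters of Trim30a and Trim30d, the members with the highest 3 h changes from untreated spleen in BALB/c, are shown first because they are nearly the same sequence. They are given 5′ to 3′ on the gene's strand, with the ISRE match in capitals, which lies on the opposite strand.
Trim30a, chr7:104465194-104465319, minus strand, match from position -36: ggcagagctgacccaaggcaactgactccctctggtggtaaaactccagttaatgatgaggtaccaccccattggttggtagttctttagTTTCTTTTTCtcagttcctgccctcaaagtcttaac
Trim30d, chr7:104507855-104507980, minus strand, match from position -41: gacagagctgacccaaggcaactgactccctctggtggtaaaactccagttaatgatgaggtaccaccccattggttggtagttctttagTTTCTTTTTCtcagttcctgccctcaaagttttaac
These stretches share 124 of 126 bases (98.4%).

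Trim12a, Trim12c and Trim34a of the same cluster hold matches of the same motif, shown with the 10 bases on each side. Trim21, which did not pass the test in any comparison with untreated spleen, holds 2 matches, and the first is shown as a contrast.
Trim12a, chr7:104315466-104315495, minus strand, match from position 11: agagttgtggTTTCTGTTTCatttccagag
Trim12c, chr7:104353359-104353388, minus strand, match from position -29: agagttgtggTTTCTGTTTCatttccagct
Trim34a, chr7:104244457-104244486, plus strand, match from position 11: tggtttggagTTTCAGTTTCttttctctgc
Trim21, chr7:102565450-102565479, minus strand, match from position 14: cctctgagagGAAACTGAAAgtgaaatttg
No match was found in the windows of Trim30b, Trim25 or Trim56. A match is a description of these letters only.

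At 3 h after CpG ODN in BALB/c spleen, 7 of the 10 interferon-responsive members were higher than in untreated spleen at an adjusted p under 0.05 (limma with Benjamini-Hochberg adjustment over all 15263 genes tested), and none was lower. Among all genes, 6.82% were called higher and 3.14% lower. The median change of the 10 members was 0.82 on the log2 scale, against -0.09 for the 35 other members and -0.03 for all genes, and all 10 changes were positive. Of the 35 others, 1 was called higher (Trim69) and 2 lower (Trim41 and Trim65). These members were chosen with earlier results known, so the counts describe the list and are not independent evidence of its direction.

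**Figure D1:**
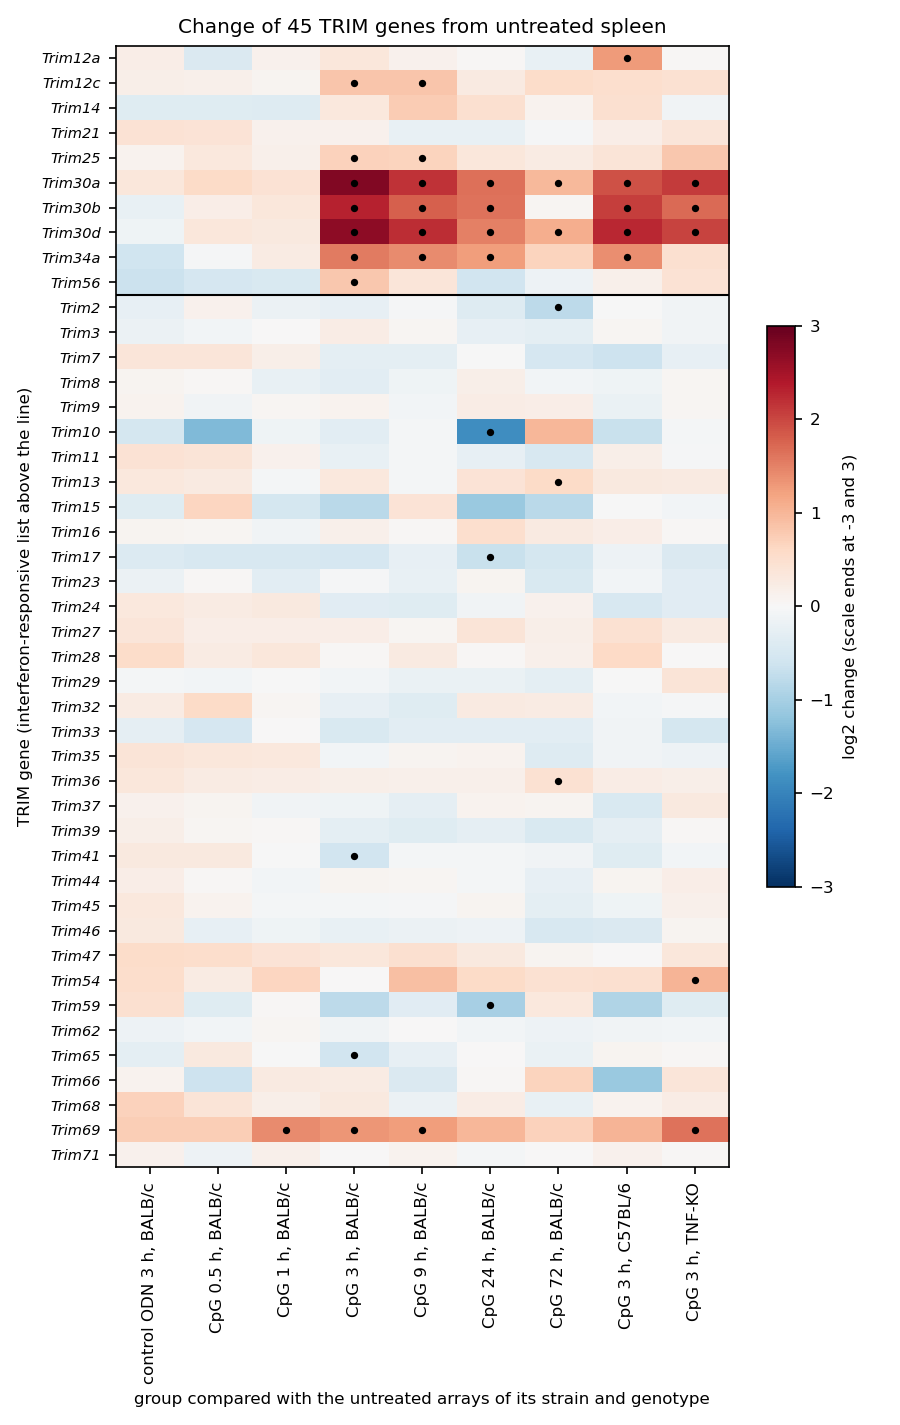
Heat map of the log2 change of each of the 45 TRIM genes (rows) in 9 comparisons with untreated spleen (columns), on a colour scale from -3 to 3, with a dot where the adjusted p was under 0.05 and a line below the 10 interferon-responsive members. The dots gather on Trim30a, Trim30b, Trim30d and Trim34a from 3 h on, and the control ODN column holds no dot.

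Trim30a, a RING ligase known to restrain Toll-like receptor signalling by promoting the loss of the adaptors TAB2 and TAB3, had the highest change at 3 h in BALB/c. Its log2 ratio in untreated BALB/c spleens had a lowest value of 2.02, a median of 2.21 and a highest value of 2.48. The 3 h arrays read 4.59, 4.95, 5.16 and 5.26, all above every untreated array. The change was 2.77 ± 0.19 (SE, 6.81-fold; limma, Benjamini-Hochberg adjusted p = 3.67e-13). At 0.5 h the arrays read 3.08, 2.60, 2.61 and 2.94 and at 1 h 2.38, 2.71, 2.74 and 2.75. The 0.5 h arrays also lay above all untreated arrays, but the change of 0.58 did not pass (adjusted p = 0.448).

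Trim30a then came down in steps that were smaller than the rise. The arrays read 4.53, 4.44, 4.37 and 4.20 at 9 h, and 4.21, 4.12, 3.89 and 3.25 at 24 h. At 72 h they read 3.30, 3.19, 3.56 and 2.76, which is still above every untreated array. The changes from untreated were 2.16 at 9 h (limma adjusted p = 2.27e-10), 1.65 at 24 h (adjusted p = 1.56e-07) and 0.98 at 72 h (adjusted p = 0.00106). Between successive times, the rise from 1 to 3 h of 2.34 passed (adjusted p = 4.73e-10), while the differences of -0.60 from 3 to 9 h (adjusted p = 0.218) and -0.67 from 24 to 72 h (adjusted p = 0.0703) did not.

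Trim30d, the next gene in the cluster, was also called at 3, 9, 24 and 72 h, on its own probe. Untreated BALB/c spleens had a lowest log2 ratio of 1.43, a median of 1.77 and a highest of 1.88, and the 3 h arrays read 4.26, 4.10, 4.56 and 4.60. Both groups were far apart, with a change of 2.68 ± 0.17 (6.39-fold; limma adjusted p = 1.08e-13). Trim30d read 4.20, 4.13, 3.82 and 3.53 at 9 h, 3.42, 3.04, 3.33 and 3.04 at 24 h, and 3.06, 2.81, 2.63 and 2.70 at 72 h, without overlap with untreated spleen at any of these times. The changes were 2.22 at 9 h (adjusted p = 1.82e-11), 1.50 at 24 h (adjusted p = 1.74e-07) and 1.10 at 72 h (adjusted p = 8.52e-05). The fall of Trim30d from 9 to 24 h, -0.71, passed the test (adjusted p = 0.0208), though without 9 h replicate 1 it was -0.62 (adjusted p = 0.0762) and it was lost on leaving out each of 4 of the 8 arrays.

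Trim30b also rose, and by 72 h its arrays spanned the untreated range. Untreated BALB/c spleens had a lowest value of 1.90, a median of 2.43 and a highest of 2.80, and the 3 h arrays read 4.02, 4.42, 5.19 and 5.26. No 3 h array overlapped the untreated ones, and the change was 2.30 ± 0.27 (limma adjusted p = 5.57e-08). Of its 2 other probes, 1 changed by 2.35 and 1 by 0.23, which was not called (adjusted p = 0.607). On the probe used the change was 1.80 at 9 h (adjusted p = 8.6e-06) and 1.63 at 24 h (adjusted p = 6.41e-05). At 72 h Trim30b read 3.03, 2.43, 1.34 and 3.08, below, within and above the untreated range, and the change from untreated was 0.05 (adjusted p = 0.914). The fall from 24 to 72 h was -1.58 ± 0.29 (adjusted p = 0.00198). The Trim30 genes are closely related, and binding of one gene's transcript to another's probe could not be assessed because probe sequences were not used here.

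Trim34a, the second gene in the order of the cluster, rose as well. Its untreated log2 ratios had a lowest value of 0.94, a median of 1.36 and a highest of 1.67, and the 3 h arrays read 2.71, 2.74, 3.24 and 2.85, again without overlap. The change was 1.57 ± 0.23 at 3 h (limma adjusted p = 5.54e-06), 1.41 at 9 h (adjusted p = 4.83e-05) and 1.26 at 24 h (adjusted p = 0.000362). At 72 h Trim34a read 2.14, 2.39, 1.05 and 2.32, with 3 arrays above the untreated range and 1 within it, and the change of 0.66 missed the threshold (adjusted p = 0.0594).

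**Figure D2:**
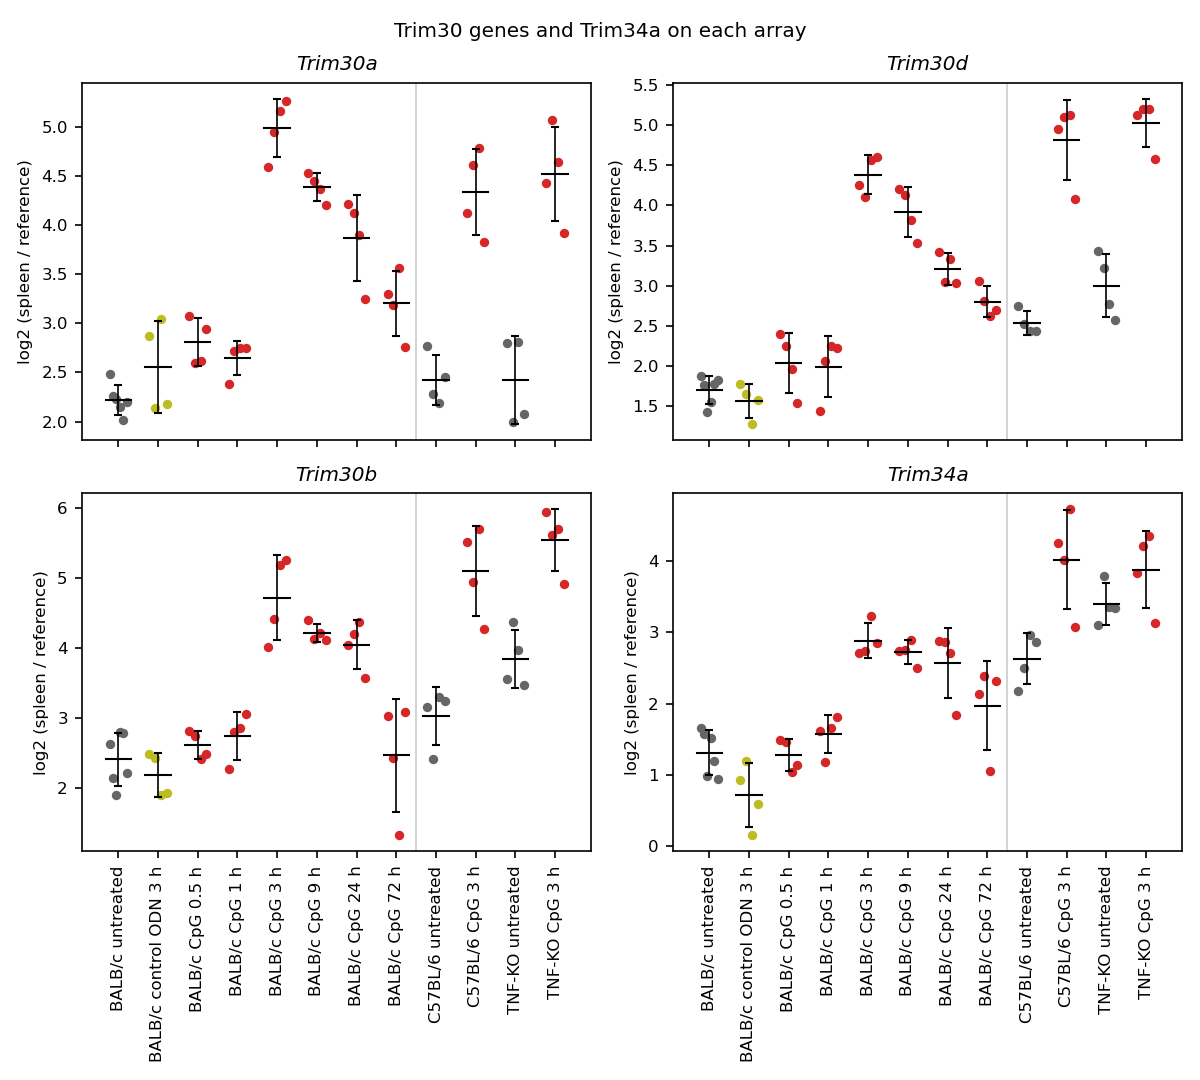
Log2 ratio of spleen over reference RNA on each array (points) for Trim30a, Trim30d, Trim30b and Trim34a in the 12 groups, with the group mean and SD (bars). In BALB/c the 3 h arrays lie above every untreated array for all 4 genes, and at 72 h Trim30b reads 1.34 to 3.08 while its untreated range is 1.90 to 2.80.

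Trim12a and Trim12c are mouse relatives of the primate retroviral restriction factor TRIM5. Trim12c read 2.21, 2.76, 2.91 and 2.50 at 3 h and had a lowest untreated value of 1.34, a median of 1.64 and a highest of 2.37 in BALB/c. The groups overlapped slightly, and the change was 0.84 ± 0.19 (limma adjusted p = 0.00258). A second Trim12c probe changed by 2.25 (adjusted p = 3.16e-12). At 9 h Trim12c read 2.55, 2.41, 2.53 and 2.84, above all untreated arrays, with a change of 0.82 (adjusted p = 0.00456). Trim12a had values on 4 of the 6 untreated arrays (0.62, 0.46, 0.63 and 0.37) and 3 of the 4 arrays at 3 h (0.38, 0.80 and 1.39). These overlapped, and the change of 0.34 did not pass (adjusted p = 0.487).

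Trim25 is the ligase known for activating the RNA sensor RIG-I. Its untreated log2 ratios had a lowest value of 0.34, a median of 0.54 and a highest of 0.90, and the 3 h arrays read 1.58, 1.00, 1.04 and 1.47. The ranges did not overlap, and the change was 0.69 ± 0.18 (limma adjusted p = 0.00822), but without 3 h replicate 1 it was 0.59 (adjusted p = 0.0576). At 9 h it was 0.66 (adjusted p = 0.0181), and without 9 h replicate 4 it was 0.58 (adjusted p = 0.0732), 1 of 3 arrays whose removal ended that call.

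Trim56, linked to signalling from the DNA-sensing adaptor STING, read 1.73, 1.67, 1.75 and 1.42 at 3 h. Untreated spleens had a lowest value of 0.37, a median of 0.73 and a highest of 1.59, so the groups overlapped through 1 untreated array. The change was 0.81 ± 0.26 (limma adjusted p = 0.039). It was lost on leaving out each of 8 of the 10 arrays compared (adjusted p up to 0.107, without 3 h replicate 3), and without untreated replicate 2, the array at 1.59, it was 0.96. The 1 array run that holds both groups has that array as its only untreated one. The difference there, -0.0092, is given without a test because 1 array has no spread of its own. The rise from 1 to 3 h was 1.27 (adjusted p = 0.0029), from 1 h arrays that read 0.22, 0.02, 0.58 and 0.66.

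Trim14, an adaptor in signalling through the mitochondrial protein MAVS, and Trim21, a cytosolic antibody receptor, passed in no comparison. At 3 h the change of Trim14 was 0.31 (limma adjusted p = 0.586) and that of Trim21 0.13 (adjusted p = 0.8). Trim14 was higher at 9 h, with 2.15, 1.70, 1.22 and 0.86, than in most untreated arrays (0.70, 1.32, 0.83, 0.87 and -0.08 on the 5 with a value), and the change of 0.76 stayed short of the threshold (adjusted p = 0.083).

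After 3 h the counts of called members fell over time among the interferon-responsive genes. None was called at 0.5 h, where 0.256% of all genes were called in either direction. An unadjusted p under 0.05 in limma was reached by 7 TRIM genes, 2 of them interferon-responsive, and by 1490 of all 15263 genes. At 1 h no interferon-responsive member was called higher, against 3.01% of all genes. The count was 6 of 10 at 9 h (4.19% of all genes called higher), 4 of 10 at 24 h (6.83%, with 1.62% called lower) and 2 of 10 at 72 h (6.43%). From 1 to 3 h 6 of the 10 rose, against 4.08% of all genes. From 3 to 9 h no TRIM gene was called, against 0.996% of all genes. In that step 4 TRIM genes and 1432 of all 15263 genes reached an unadjusted p under 0.05 in limma. From 9 to 24 h 1 TRIM gene rose (Trim32) and 2 fell (Trim30d and Trim56), against 4.88% and 2.05% of all genes. From 24 to 72 h 2 rose (Trim10 and Trim59) and 1 fell (Trim30b), against 2.26% and 1.07%. The 24 and 72 h arrays share no array run, so time and run cannot be told apart for any gene in this step. The Trim56 fall was -0.95 (limma adjusted p = 0.0374) and was lost on leaving out each of 6 of 8 arrays (adjusted p up to 0.144, without 24 h replicate 2).

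The array runs bear on these counts. With array run as a fixed block, 5 of the 10 TRIM genes called at 3 h passed (Trim30a, Trim30b, Trim30d, Trim34a and Trim69). Trim30a, Trim30b and Trim30d alone passed at 9 and at 24 h. Calls among all genes also fell with the block, from 1520 to 748 at 3 h, 1062 to 210 at 9 h and 1290 to 215 at 24 h. In that fit 24 h replicate 1 was left out. The 9 and 24 h arrays link to untreated arrays there only through arrays of other times. In the run that holds 1 untreated array (replicate 2) and 2 of the 3 h arrays, the difference, given with no test because 1 array has no spread of its own, was 2.94 for Trim30a, 3.08 for Trim30b, 2.82 for Trim30d, 1.47 for Trim34a, 0.50 for Trim12c and 0.77 for Trim25. With the block, Trim34a changed by 1.46 at 9 h (limma adjusted p = 0.0591) and by 1.21 at 24 h (adjusted p = 0.136).

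Markers of other cells also moved in these spleens. The mean of 8 neutrophil markers lay between 1.63 and 2.60 in untreated BALB/c spleens, between 3.15 and 3.94 at 1 h, between 2.79 and 3.24 at 3 h and between 3.17 and 3.74 at 9 h. Of the 8, 4 were called higher at each of these times, against 3.01%, 6.82% and 4.19% of all genes. With control ODN at 3 h the neutrophil mean was 1.97 to 3.77. There 2 of the 8 were called higher, against 160 of all 15262 genes. The mean of 6 T-cell markers was 1.99 to 2.55 untreated, 1.40 to 2.03 at 9 h and 1.55 to 1.86 at 72 h, and that of 5 macrophage markers was 1.86 to 2.45 untreated and 0.84 to 1.74 at 9 h. At 9 h 2 of 6 T-cell and 1 of 5 macrophage markers were called lower, against 423 of all 15263 genes. At 72 h 3 of 6 T-cell markers were called lower, against 4.15% of all genes. The part of these shifts in the TRIM changes was not tested.

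Genes of nucleic acid sensing and interferon signalling and partners of TRIM ligases, called pathway genes here, were read beside the family. They came from a list of 25 of which 24 were measured, and TRIM relatives such as Pml and Mid2 are on it. At 3 h in BALB/c 13 of the 24 were called higher and 2 lower, against 6.82% and 3.14% of all genes. The ubiquitin-like modifier Isg15 rose by 2.30, its protease Usp18 by 4.01, the RNA sensor Ifih1 by 3.43, and Ddx58, which encodes RIG-I, by 0.95. The transcription factors Stat2, Irf9 and Irf7 rose by 2.03, 1.06 and 0.79, and Pml, itself a TRIM protein by structure, by 1.72. The adaptor Mavs fell by 0.71 and the TRIM relative Mid2 fell by 0.94. No pathway gene was called at 0.5 h, against 0.256% of all genes in either direction. At 1 h 3 were called higher (Irf9, Mefv and Usp18), against 3.01% of all genes. At 9, 24 and 72 h 8, 7 and 6 of the 24 were called higher, against 4.19%, 6.83% and 6.43% of all genes. The count with control ODN was 0, against 1.42% of all genes called in either direction.

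Among the other members, Trim69, first described from testis, was the only one called higher in BALB/c at 1, 3 and 9 h. Its untreated log2 ratios had a lowest value of -0.82, a median of 0.03 and a highest of 0.72. The arrays read 1.90, 2.20, 0.42 and 1.09 at 1 h, 1.36, 1.86, 1.14 and 0.92 at 3 h and 0.76, 1.19, 1.80 and 1.19 at 9 h. The ranges were separate at 3 and 9 h and overlapped at 1 h. The changes were 1.42 ± 0.36 at 1 h (limma adjusted p = 0.0172), 1.33 ± 0.36 at 3 h (adjusted p = 0.0109) and 1.25 at 9 h (adjusted p = 0.0262). Without 3 h replicate 2 the 3 h change was 1.16 (adjusted p = 0.0626), without 1 h replicate 2 the 1 h change was 1.15 (adjusted p = 0.149), and without 9 h replicate 3 the 9 h change was 1.06 (adjusted p = 0.129). A second Trim69 probe read -0.12 at 3 h, so the rise rests on 1 of 2 probes. The control ODN arrays of Trim69 read 1.51, 1.25, 0.13 and 0.03, of which 2 lay above the untreated range.

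Trim10, required for red cell differentiation, varied most among the others. Untreated BALB/c spleens had a lowest value of 2.46, a median of 3.03 and a highest of 4.29. At 24 h Trim10 read 1.29, 1.30, 0.13 and 2.28, all below the untreated range, and at 72 h 5.23, 3.84, 3.41 and 4.01. The 24 h change was -1.87 ± 0.59 (limma adjusted p = 0.042), and the rise from 24 to 72 h was 2.87 ± 0.64 (adjusted p = 0.00898), or 2.50 without 24 h replicate 3 (adjusted p = 0.0578). The 24 h call was lost on leaving out each of 6 of 10 arrays (adjusted p up to 0.22, without 24 h replicate 3, at -1.49). The mean of 6 erythroid markers was 5.03 to 5.21 untreated, 4.16 to 4.92 at 24 h and 4.82 to 5.82 at 72 h, and its part in the Trim10 values was not tested. At 0.5 h Trim10 read 0.45, 0.35, 3.66 and 2.67, a spread within 1 group as wide as these differences.

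Trim59, a membrane-anchored member, was lower at 24 h, with arrays at -0.37, 0.14, -1.11 and -0.94 against an untreated lowest value of -0.08, a median of 0.52 and a highest of 0.67. The change was -1.0 ± 0.27 (limma adjusted p = 0.0165), and without 24 h replicate 3 it was -0.82 (adjusted p = 0.117). At 3 h all Trim59 arrays (-0.10, -0.24, -0.44 and -0.66) lay below the untreated ones with a change of -0.79 that did not pass (adjusted p = 0.0588). By 72 h Trim59 read 0.88, 1.05, 0.87 and 0.18, a rise of 1.31 from 24 h (adjusted p = 0.00933), and without 24 h replicate 3 that rise was 1.13 (adjusted p = 0.0601).

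**Figure D3:**
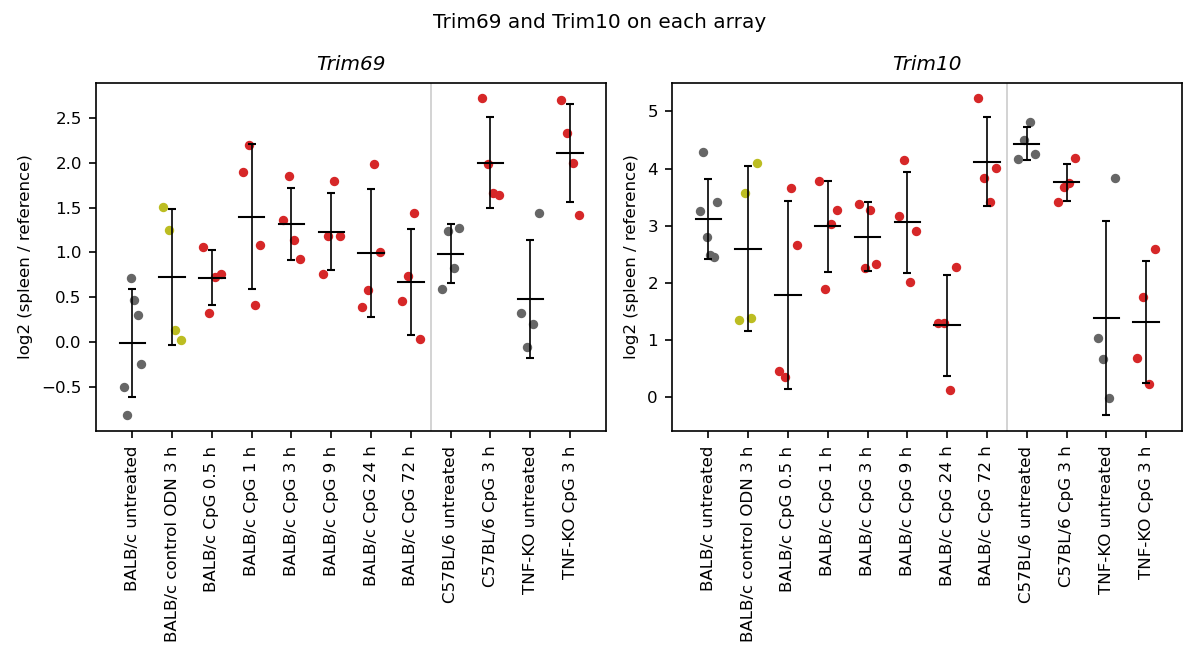
Log2 ratio of spleen over reference RNA on each array (points) for Trim69 and Trim10 in the 12 groups, with the group mean and SD (bars). Trim69 at 3 h in BALB/c reads 0.92 to 1.86, above the untreated maximum of 0.72, and Trim10 is low at 24 h and on 3 of 4 untreated TNF-knockout arrays.

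The remaining calls among the others in BALB/c were small. At 3 h Trim41 read -0.91, -0.78, -0.74 and -0.83, just below its untreated range of -0.73 to 0.08, and changed by -0.57 ± 0.18 (limma adjusted p = 0.041), and Trim65, which ubiquitinates the RNA sensor MDA5, read 0.58, 0.96, 1.12 and 0.63 and changed by -0.58 ± 0.17 (adjusted p = 0.0281). Trim41 was lost on leaving out each of 8 of 10 arrays (adjusted p up to 0.114, without 3 h replicate 1) and Trim65 on each of 4 (adjusted p up to 0.125, without 3 h replicate 1). Trim17 fell at 24 h by 0.67 (adjusted p = 0.0239), and without 24 h replicate 3 its adjusted p was 0.145.

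At 72 h, where 6.43% of all genes were called higher and 4.15% lower, 2 of the 35 others were called higher and 1 lower. These were Trim13, an endoplasmic reticulum ligase (0.58, adjusted p = 0.034), Trim36, a microtubule-associated member (0.46, adjusted p = 0.0489), and the NHL-repeat member Trim2 (-0.80, adjusted p = 0.0251), all by limma. Each was lost on leaving out single arrays, with adjusted p without 72 h replicate 3 of 0.143, 0.194 and 0.094 in that order. Trim32, also an NHL member, rose by 0.62 from 9 to 24 h (adjusted p = 0.0282), and without 24 h replicate 2 by 0.52 (adjusted p = 0.106).

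None of the 4 members of the TIF1 group of chromatin regulators passed against untreated BALB/c spleen at any time. At 3 h the changes were -0.35 for Trim24, 0.03 for Trim28, the corepressor of KRAB zinc finger proteins, -0.46 for Trim33 and 0.25 for Trim66. The muscle member Trim54 changed by 0.01. Over all 35 others, 3 h changes ran from -0.81 to 1.33.

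Control ODN at 3 h gave no called TRIM gene against untreated spleen, where 1.42% of all genes were called by limma. An unadjusted p under 0.05 in limma was reached by 11 TRIM genes and by 3412 of all 15262 genes. Trim30a read 2.87, 2.14, 3.04 and 2.17 with a change of 0.33 (limma adjusted p = 0.298), Trim34a changed by -0.59 (adjusted p = 0.133) and Trim56 by -0.65 (adjusted p = 0.136). Without control ODN replicate 4 there were 7 called genes, Trim11, Trim13, Trim27, Trim44, Trim47, Trim56 and Trim68, of which 6 were higher and 1 lower. Calls among all genes in that fit are not given here, so the count is not read as a TRIM response to control ODN.

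CpG ODN was then compared with control ODN at 3 h. These arrays share no array run, so agent and run cannot be told apart in this comparison. Of the 10 interferon-responsive members 7 were higher and none lower, against 7.40% of all genes called higher. The changes were 2.81 for Trim30d (limma adjusted p = 7.08e-13), 2.53 for Trim30b (adjusted p = 8.19e-08), 2.43 for Trim30a (adjusted p = 1.2e-10), 2.16 for Trim34a (adjusted p = 1.23e-07) and 1.46 for Trim56 (adjusted p = 0.000377). Trim12c (0.65, adjusted p = 0.0293) and Trim25 (0.59, adjusted p = 0.0352) also passed, and each lost the call without single arrays (adjusted p up to 0.106 for Trim12c, without control ODN replicate 1, and up to 0.119 for Trim25, without 3 h replicate 1).

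Of the 35 others 4 were lower with CpG ODN than with control ODN and none was higher, against 10.9% of all genes called lower. These were Trim59 (-1.27, limma adjusted p = 0.00265), Trim41 (-0.85, adjusted p = 0.00297), Trim24 (-0.67, adjusted p = 0.0253) and Trim11 (-0.65, adjusted p = 0.0389). Trim59 read 0.29, 0.97, 1.40 and 0.99 with control ODN. Trim24 and Trim11 were lost on leaving out single arrays, each with its highest adjusted p without control ODN replicate 3, 0.113 and 0.146.

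The response at 3 h was next read in C57BL/6 mice. In the C57BL/6 controls 5 of the 10 interferon-responsive members were higher, against 4.95% of all 14950 genes tested, and none of the 35 others was called. Trim30d read 2.75, 2.52, 2.44 and 2.44 untreated and 4.95, 5.10, 5.12 and 4.08 after CpG ODN, a change of 2.27 ± 0.24 (limma adjusted p = 6.75e-06). Trim30b read 3.16, 2.42, 3.30 and 3.25 untreated and 5.51, 4.94, 5.70 and 4.27 after CpG ODN, a change of 2.07 ± 0.31 (adjusted p = 0.000233). Both separated the groups without overlap.

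Trim30a in the C57BL/6 controls read 2.77, 2.28, 2.19 and 2.46 untreated and 4.12, 4.60, 4.78 and 3.83 after CpG ODN, and changed by 1.91 ± 0.27 (limma adjusted p = 0.000144). Trim34a read 2.18, 2.51, 2.96 and 2.86 untreated and 4.26, 4.02, 4.72 and 3.08 after CpG ODN, and changed by 1.39 ± 0.31 (adjusted p = 0.00845). Neither gene's groups overlapped. Trim12a was called here, unlike in BALB/c, with 0.61, 1.06, 1.56 and 1.48 untreated and 2.79, 2.42, 2.83 and 1.75 after CpG ODN, a change of 1.27 ± 0.29 (adjusted p = 0.00981). The difference between the strains' Trim12a responses was 0.94 and did not pass (adjusted p = 0.593). Trim12c (0.50, adjusted p = 0.409), Trim25 (0.38, adjusted p = 0.377) and Trim56 (0.15, adjusted p = 0.733) were not called. The second Trim12c probe was called, with a change of 1.43 (adjusted p = 9.77e-05).

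In TNF-knockout spleens 3 of the 10 interferon-responsive members and 2 of the 35 others were higher, against 3.45% of all genes. Trim30a read 2.80, 1.99, 2.81 and 2.08 untreated and 4.43, 5.07, 4.64 and 3.92 after CpG ODN, a change of 2.09 ± 0.27 (limma adjusted p = 6.19e-05). Trim30d read 3.43, 3.22, 2.78 and 2.57 untreated and 5.13, 5.20, 5.20 and 4.57 after CpG ODN, a change of 2.02 (adjusted p = 2.47e-05). Trim30b read 3.56, 4.37, 3.97 and 3.47 untreated and 5.93, 5.61, 5.70 and 4.92 after CpG ODN, a change of 1.70 (adjusted p = 0.00198). None of these genes' groups overlapped.

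Trim34a and Trim12a did not pass in TNF-knockout spleens. Trim34a read 3.10, 3.80, 3.35 and 3.34 untreated and 3.84, 4.21, 4.35 and 3.13 after CpG ODN, which overlapped, with a change of 0.48 (limma adjusted p = 0.55). Trim12a read 2.31, 2.06, 3.00 and 2.14 untreated and 1.84, 2.65, 2.92 and 2.26 after CpG ODN, with a change of 0.04 (adjusted p = 0.974). For both genes every untreated knockout array lay above every untreated C57BL/6 control array, while the treated arrays of the genotypes overlapped. Neither untreated difference was called. Trim12c changed by 0.46 and was not called on the probe used, while its second probe was called at 1.05 (adjusted p = 0.00433). Trim69 read 0.33, -0.06, 0.20 and 1.44 untreated and 2.71, 2.34, 2.00 and 1.42 after CpG ODN, a change of 1.64 that passed (adjusted p = 0.00481), and in the C57BL/6 controls its change of 1.02 did not (adjusted p = 0.064). Trim54, a muscle member, rose by 1.03 (adjusted p = 0.0348), and without CpG ODN replicate 1 by 0.81 (adjusted p = 0.156), while skeletal muscle markers lay between -1.26 and -0.93 in those 4 arrays.

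For the difference between the 2 responses, 3 TRIM genes and 1199 of all 14950 genes reached an unadjusted p under 0.05 by limma. This difference, TNF-knockout minus control, passed for no TRIM gene, against 0.0268% of all genes called by limma. It was -1.23 ± 0.41 for Trim12a (limma adjusted p = 0.462), -0.90 ± 0.44 for Trim34a (adjusted p = 0.623), 0.18 ± 0.38 for Trim30a (adjusted p = 0.95), -0.37 ± 0.43 for Trim30b (adjusted p = 0.883) and -0.25 ± 0.34 for Trim30d (adjusted p = 0.901). With 4 arrays a group these errors leave room for differences either way, so the responses were not shown to be alike. The difference between the strains, C57BL/6 control minus BALB/c, also passed for no TRIM gene (0.453% of all genes called by limma). It was -0.86 ± 0.32 for Trim30a (limma adjusted p = 0.47). An unadjusted p under 0.05 in that limma test was reached by 4 TRIM genes and by 982 of all 15218 genes.

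**Figure D4:**
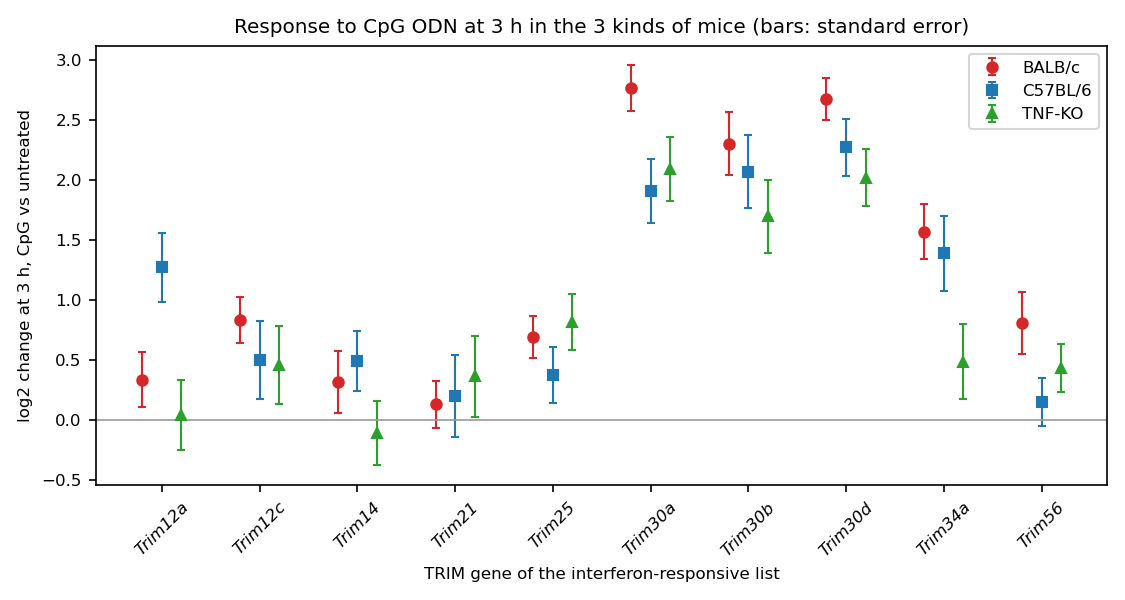
Change in log2 ratio 3 h after CpG ODN, with SE bars, for the 10 interferon-responsive members in BALB/c, C57BL/6 control and TNF-knockout spleens. Trim30a, Trim30b and Trim30d lie between 1.70 and 2.77 in all 3 backgrounds, and Trim12a (0.04) and Trim34a (0.48) are lowest in the TNF-knockout spleens. The untreated knockout arrays of Trim12a and Trim34a lay above every untreated C57BL/6 control array.

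Neutrophil markers were higher after CpG ODN in both genotypes, with a mean of 2.91 to 3.59 untreated and 4.20 to 5.08 treated in the controls and 1.55 to 3.57 untreated and 3.60 to 4.42 treated in the knockouts, and 4 and 5 of the 8 were called higher. The mean of 5 macrophage markers was 2.43 to 2.82 untreated and 1.33 to 2.25 treated in the controls, where 2 of 5 were called lower, and 2.29 to 2.65 untreated and 1.92 to 2.36 treated in the knockouts, where none was. The mean of 5 B-cell markers in the knockouts was 3.45 to 4.06 untreated and 2.98 to 3.31 treated, with none called. The part of these markers in the TRIM changes was not tested. Pathway genes were called higher for 11 of 24 in the controls, against 4.95% of all genes, and 1 was called lower, against 411 of all 14950 genes. In the knockouts 8 of 24 were called higher, against 3.45% of all genes. In the knockouts Usp18 rose by 3.76, Ifih1 by 2.90, Isg15 by 2.71 and Irf7 by 2.11. With array run as a fixed block the TNF-knockout count of TRIM genes was 3, again Trim30a, Trim30b and Trim30d.

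Between untreated genotypes 1 TRIM gene was called lower in the knockouts, against 0.515% of all genes. Trim10 read 4.17, 4.50, 4.81 and 4.26 in control spleens and 1.03, 0.66, -0.03 and 3.84 in knockout spleens, so 3 of 4 knockout arrays lay far below and 1 just below the controls. The change was -3.06 ± 0.60 (limma adjusted p = 0.0352), and it was lost on leaving out each of 7 of the 8 arrays (adjusted p up to 0.147, without knockout replicate 3). Without knockout replicate 4 the change was -3.88 and 3 TRIM genes were called. The mean of 6 erythroid markers on the untreated knockout arrays was 4.50, 3.15, 3.69 and 4.84 in the same order, and 4.74 to 5.72 in the controls. Its part in the Trim10 values was not tested. With array run as a fixed block 4 genes were called, Trim10, Trim12a, Trim30b and Trim59, and on the main values Trim12a was higher by 1.20 (adjusted p = 0.0718).

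After CpG ODN no TRIM gene differed between the genotypes by limma, against 0.368% of all genes. In the same limma test 3 TRIM genes and 1886 of all 14950 genes reached an unadjusted p under 0.05. Trim10 read 3.41, 3.68, 3.75 and 4.18 in the controls and 0.68, 1.75, 0.22 and 2.60 in the knockouts, a change of -2.44 (adjusted p = 0.0921).

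Untreated levels were also set between strains, which cannot be told apart from array run. C57BL/6 control spleens had 4 of the 10 interferon-responsive members higher than BALB/c spleens and none lower, against 8.47% of all genes called higher. These were Trim34a (1.31, limma adjusted p = 0.00034), Trim30d (0.83, adjusted p = 0.00205), Trim56 (0.83, adjusted p = 0.0142) and Trim25 (0.55, adjusted p = 0.0452). The lowest C57BL/6 value of Trim34a, 2.18, was above the highest untreated BALB/c value, 1.67. The median difference was 0.58 for the 10 members, 0.11 for the others and 0.04 for all genes.

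Of the 35 others, Trim69 (0.99, limma adjusted p = 0.0487) and Trim47 (0.70, adjusted p = 0.0424) were higher in C57BL/6 and Trim2 (-0.89, adjusted p = 0.00581), Trim33 (-0.73, adjusted p = 0.026) and Trim16 (-0.60, adjusted p = 0.0371) were lower, against 6.06% of all genes called lower. The count of 9 TRIM genes fell to 4 without untreated C57BL/6 replicate 3. Leaving out single arrays ended the calls of Trim25 (8 of 10 arrays, adjusted p up to 0.133), Trim47 (6, up to 0.185), Trim69 (6, up to 0.126), Trim16 (6, up to 0.121), Trim33 (4, up to 0.0961) and Trim56 (1, C57BL/6 replicate 1, 0.0833), all by limma. Trim2 kept its call with each array left out, but lost it with probe means and with the replicate block. Over all settings its difference ran from -1.12 to -0.33, with a limma adjusted p up to 0.28. Neutrophil markers were at 2.91 to 3.59 in these untreated C57BL/6 spleens against 1.63 to 2.60 in BALB/c, with 4 of 8 called higher. The mean of 6 T-cell markers was 2.78 to 3.37 against 1.99 to 2.55, with 3 of 6 called higher, and that of 5 macrophage markers 2.43 to 2.82 against 1.86 to 2.45, with 2 of 5 called higher. The part of these markers in the differences was not tested.

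Of the 45 members 20 had more than 1 probe, and the probe with the most values stood for the gene. A second Trim12c probe changed by 1.84 at 9 h, 1.41 at 24 h and 0.90 at 72 h in BALB/c, where the one used changed by 0.82, 0.27 and 0.55, and the second passed at all 3 times in limma. The Trim30b probe that was not called at 3 h in BALB/c differed by 0.01 between CpG and control ODN (adjusted p = 0.973) and changed by 1.23 in the C57BL/6 controls (adjusted p = 0.0163) and 1.43 in the knockouts (adjusted p = 0.0084). The 3 probes of Trim34a changed by 1.57, 1.60 and 0.95 at 3 h in BALB/c.

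Several of the smaller calls were not seen on a second probe. At 72 h the second probes read -0.36 for Trim13, -0.14 for Trim2 and -0.08 for Trim36. In the comparison of CpG with control ODN the other Trim24 probes read -0.02 and 0.07, and between untreated strains the 4 other Trim33 probes read from -0.24 to 0.13. Trim10 was low on both its probes, with -1.15 at 24 h (limma adjusted p = 0.13) and -3.28 between untreated genotypes (adjusted p = 0.088) on the second.

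**Figure D5:**
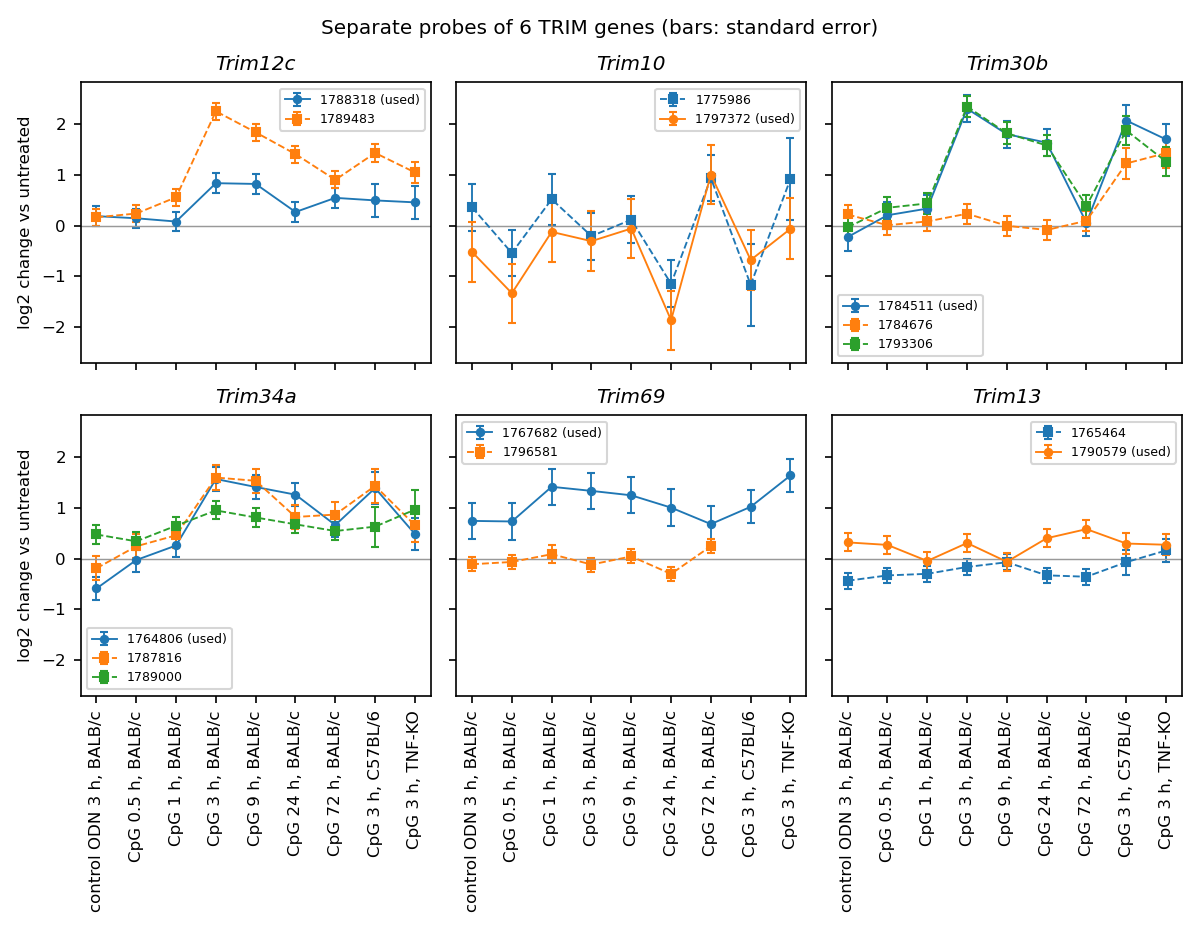
Change in log2 ratio, with SE bars, of each probe of Trim12c, Trim10, Trim30b, Trim34a, Trim69 and Trim13 in 9 comparisons with untreated spleen. The Trim12c probes differ in size (0.84 and 2.25 at 3 h in BALB/c), and 1 of the Trim30b probes stays at 0.23 at 3 h in BALB/c.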

How the data were processed

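The authors deposited log2 ratios of spleen (Cy5) over universal reference RNA (Cy3) for 36607 probes on 50 arrays, 27619 to 30590 values an array. Per the series text, the authors corrected background, removed flagged values and spots with both signals low, and applied lowess. Here each array was centred on its median. Probes with values on over 70% of the arrays of a fit were kept, the probe with most values stood for a gene, and limma 3.58.1 (R 4.3.3) was fitted to BALB/c (34 arrays), C57BL/6 (16) or all arrays (strain comparisons). P-values were adjusted by Benjamini-Hochberg over all genes (threshold 0.05). The code was tested on simulated data. The number of arrays limits the precision.

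Members and lists were chosen with earlier results of these data known. All interferon-responsive members are named, other members when called or of the erythroid, muscle or TIF1 groups, and the rest by counts. Alternatives were scaled spread, complete values, probe means, array run, replicate block, leaving out each array and, chosen after seeing the data, pancreas markers as a covariate. Array runs were inferred from adjacent array numbers in the titles (a new run at a gap over 10), and the labels do not say whether they mark batches.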

Additional observations from a re-analysis of the deposited data

Results flagged for a closer look

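Single arrays stood apart from the other 3 of their group in 9 of the 128 groups checked over 11 TRIM genes, by Dixon's gap ratio, where chance alone gives about 1 in 20. In TNF-knockout spleens after CpG ODN, 4 of these 9 were replicate 4: it was lowest for Trim25 at 1.09 (others 1.89 to 2.05), Trim30d at 4.57 (others 5.13 to 5.20) and Trim56 at 1.25 (others 1.57 to 1.61), and highest for Trim59 at -0.14 (others -1.08 to -0.97). In C57BL/6 controls Trim30d was lowest in CpG ODN replicate 4 at 4.08 (others 4.95 to 5.12), and Trim30b was lowest in untreated replicate 2 at 2.42 (others 3.16 to 3.30). The CpG ODN replicate 4 arrays of both genotypes and untreated knockout replicate 4 make up the same array run. The part of that run in these values was not tested. In BALB/c Trim30a was lowest in 1 h replicate 1 at 2.38 (others 2.71 to 2.75), Trim34a in 24 h replicate 4 at 1.85 (others 2.71 to 2.88) and Trim56 in 72 h replicate 3 at -0.042 (others 0.87 to 0.96). No difference of CpG responses between strains or genotypes passed the test for a TRIM gene.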

How the results depend on the processing

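On the probes used and in probe means, Trim30a, Trim30b and Trim30d kept every call against untreated spleen in all settings run. The settings counted here include the fit within array run 2, whose 1 untreated array has no spread of its own. Of 73 called results for single genes, 33 kept direction and call in every setting, and 40 lost the call in at least 1. Of these, 1 had a value of the other sign: Trim56 at 3 h in BALB/c, -0.0092 within array run 2, where 1 untreated array (replicate 2, the highest) is assumed to vary like the 1 and 3 h arrays, so no reversal can be read from it. With array run as a fixed block the count of called TRIM genes went from 10 to 5 at 3 h, from 7 to 3 at 9 h, from 7 to 3 at 24 h, from 5 to 3 in TNF-knockout spleens and from 1 to 4 between untreated genotypes. For all genes these were 1520 to 748, 1062 to 210, 1290 to 215, 564 to 349 and 89 to 226, in that order. Arrays alone in their run were left out of that fit. The 72 h and control ODN comparisons with untreated spleen cannot be estimated with that block. Nor can CpG against control ODN or 72 against 24 h. Scaling the spread gave 0 in place of 1 at 1 h, 8 in place of 5 at 72 h, 0 in place of 1 between untreated genotypes and 5 in place of 9 between untreated strains. Calls among all genes went from 503 to 299, 1616 to 2108, 89 to 23 and 2213 to 1773, in that order. Between untreated genotypes, probe means gave 0, run as a random block 2 and the pancreas covariate 0. Calls among all genes were 66, 170 and 17 in these fits, against 89 in the main fit. Within array run 1 the 1 h count was 2, with 1687 calls among all genes against 503 in the main fit. The cause of these shifts was not tested.

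Replicate numbers were not used to pair the arrays in the main fit. The correlation of deviations for equal numbers had a median of 0.0766 in C57BL/6 (11 of 24 over 0.1) and 0.0518 in BALB/c (44 of 112). For unequal numbers the medians were lower, -0.0480 in C57BL/6 (16 of 72 over 0.1) and -0.0288 in BALB/c (115 of 392). Whether equal numbers mark paired arrays was not tested. With the replicate block the counts were 0 at 1 h, 3 at 72 h, 3 between untreated genotypes, 1 between genotypes after CpG ODN (main 0) and 5 between untreated strains. For all genes these went from 503 to 333, 1616 to 989, 89 to 154, 55 to 83 and 2213 to 1920, in that order.

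Leaving out 1 array gave counts of 0 to 0 at 0.5 h, 0 to 1 at 1 h, 7 to 10 at 3 h, 5 to 9 at 9 h, 4 to 9 at 24 h (4 without 24 h replicate 3), 2 to 9 at 72 h (2 without untreated replicate 6, 9 without 72 h replicate 4) and 0 to 7 for control ODN. They were 8 to 13 for CpG against control ODN, 5 to 8 for 3 against 1 h, 0 to 0 for 9 against 3 h, 0 to 4 for 24 against 9 h (0 without 9 h replicate 1) and 1 to 5 for 72 against 24 h (1 without 24 h replicate 3). They were 5 to 6 in C57BL/6 controls, 4 to 6 in TNF-knockouts, 0 to 3 between untreated genotypes, 0 to 0 between genotypes after CpG ODN and for both differences of responses, and 4 to 9 between untreated strains. Calls among all genes with an array left out are not given here, so these ranges are not read as results about TRIM genes.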
